A study of Homo sapiens with 6 samples.

Results

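The DHRS family examined here comprises 10 genes that encode members of the short-chain dehydrogenase/reductase superfamily, DHRS1, DHRS2, DHRS3, DHRS4, DHRS7, DHRS7B, DHRS9, DHRS11, DHRS12 and DHRS13. They were taken by symbol from the 20263 genes of the expression table, and all 10 had a line in it. The family was proposed because DHRS2 stood out in the comparison of these same samples, so the differences between treated and control cells are given for the 10 genes as a description; where a count says how many of them passed the test over all genes, nothing is read from it. The cells were HCT116, an established human line of colorectal carcinoma. In 3 samples they were labelled WT, read here as cells not given CSE, and in 3 samples they were labelled as treated with CSE. The labels do not spell out CSE, which is taken to mean cigarette smoke extract because the series title speaks of smoking. The sources used here state neither its dose, nor how long cells were exposed, nor the vehicle, and all samples derive from a single line.

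Short-chain dehydrogenases/reductases share a nucleotide-binding fold and use NADH or NADPH to move hydrogen between alcohols and the matching ketones or aldehydes. Their substrates include retinoids, steroids, lipids and reactive carbonyl compounds, and several enzymes of the group sit in the membrane of the endoplasmic reticulum, in peroxisomes or in mitochondria. DHRS2, also called HEP27, has been described as a protein of mitochondria and nucleus that binds MDM2, the ligase that degrades p53. DHRS4 is a peroxisomal carbonyl and retinal reductase, DHRS3 and DHRS9 act on retinal and retinol, and DHRS7B works in ether lipid synthesis.

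DHRS2 and DHRS4 are close relatives and neighbours on chromosome 14, and their RefSeq start windows differ in sequence. The windows below run from 250 bases before to 50 bases after the RefSeq start (build GRCh38.p14, plus strand). They are shown as a description, and a link between them and the RNA levels was not tested. Which start site these cells use was not measured. In DHRS2 (chr14:23629865-23630164) capitals mark TATAAA, the core of a TATA box, whose first base lies 29 bases before the start. In DHRS4 (chr14:23953520-23953819) and its copy DHRS4L2 (chr14:23988679-23988978) capitals mark the longest stretch that both windows hold unchanged, 35 bases; of the 3 windows of DHRS4L2, the one with the longest such stretch is shown. Aligned end to end, the windows shown for DHRS4 and DHRS4L2 were identical in 78.5% of columns and those of DHRS4 and DHRS2 in 42.4%. The DHRS4L2 window shown lies inside the gene, which starts at 23969874, and its other windows were not aligned end to end.
DHRS2: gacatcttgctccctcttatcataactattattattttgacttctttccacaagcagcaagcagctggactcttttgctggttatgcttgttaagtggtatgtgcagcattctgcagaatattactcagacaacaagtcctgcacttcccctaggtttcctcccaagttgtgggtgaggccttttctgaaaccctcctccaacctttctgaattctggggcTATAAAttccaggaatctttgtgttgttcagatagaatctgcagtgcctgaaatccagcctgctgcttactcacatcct
DHRS4: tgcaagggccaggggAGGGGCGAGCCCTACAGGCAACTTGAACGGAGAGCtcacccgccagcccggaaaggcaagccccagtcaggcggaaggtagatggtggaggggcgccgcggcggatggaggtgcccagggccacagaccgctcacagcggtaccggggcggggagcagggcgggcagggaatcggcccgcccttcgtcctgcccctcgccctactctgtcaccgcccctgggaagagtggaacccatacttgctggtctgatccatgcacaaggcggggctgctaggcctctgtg
DHRS4L2: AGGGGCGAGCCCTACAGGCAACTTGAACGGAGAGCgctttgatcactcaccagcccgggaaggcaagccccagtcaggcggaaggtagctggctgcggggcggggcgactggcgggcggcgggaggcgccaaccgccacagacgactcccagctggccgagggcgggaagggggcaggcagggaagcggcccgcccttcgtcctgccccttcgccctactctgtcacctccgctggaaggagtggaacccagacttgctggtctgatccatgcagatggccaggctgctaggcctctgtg

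The DHRS2 window held 44.0% G + C and 0 CpG dinucleotides, and the DHRS4 window 68.7% G + C and 20 CpG. Across 34796 distinct windows of 300 bases the medians were 58.7% and 14 CpG, 18.9% of windows had less G + C than DHRS2, and 3.97% had 0 CpG. TATAAA, searched on the gene's strand, occurred in 7.37% of all windows, and 0.865% held it together with 0 CpG. That pair is the one the DHRS2 window holds, so its share is a description and no test. The GC box GGGCGG, searched on both strands and present in 44.9% of all windows, was found in the windows of DHRS4 and DHRS4L2 shown above and not in that of DHRS2. CCAAT (34.6% of windows) and the nuclear receptor half-site AGGTCA (13.8%), both searched on both strands, were absent from all 3. Of the 10 genes, 9 had at least 1 of 18 windows in the table. The 4 windows of DHRS9 held 31.3% to 39.3% G + C and 0 to 4 CpG, and 2 of them held TATAAA. The 13 windows of the other 7 genes had 49.3% to 74.7% G + C and 5 to 40 CpG. These matches describe letters in a window and were not tied to any measured binding.

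**Figure D1:**
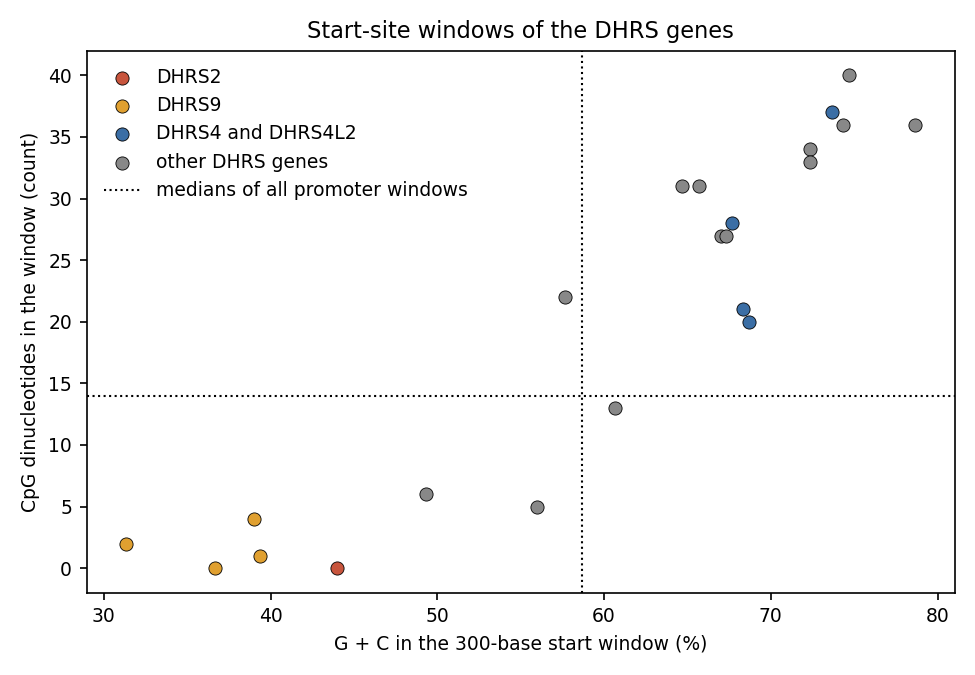
Each point is a 300-base start window of a DHRS gene, with G + C in percent on the x axis and the count of CpG dinucleotides on the y axis; dotted lines are the medians of all windows (58.7% and 14). The DHRS2 window (orange), at 44.0% and 0 CpG, lies at the lower left with the windows of DHRS9 (yellow), while DHRS4 and DHRS4L2 (blue) lie at the upper right among most other DHRS genes (grey).

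The coding sequences put DHRS2 closest to DHRS4. In global alignments of the longest coding sequence of each gene (GENCODE 29), DHRS2 (900 bases) and DHRS4 (834 bases) were identical in 613 of 906 columns, or 67.7%. Over all 45 pairs of the 10 genes the identity ranged from 43.2% to 67.7% with a median of 47.3%, and the next highest pair, DHRS2 with DHRS3, reached 50.9%. No 50-base word was shared between transcripts of any of the 45 pairs (0 pairs), so a read of that length without mismatches points to one of them. DHRS4 differs in this from DHRS4L2, which lies next to it: 35.3% of the 50-base words of DHRS4 transcripts also occurred in DHRS4L2. The values of DHRS4 and DHRS4L2 are therefore uncertain when read gene by gene, since the counting could have divided shared reads either way.

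The values are labelled TPM, an abundance that should be scaled for transcript length and brought to the same total in every sample. Their low values do not look scaled for length. In WT replicate 1, MYH6, MYH7, VIL1, CDH5 and RXRG were all at 0.03, and ADH4, RDH8 and AKR1B15 at 0.05. Scaling would give genes of different length different steps. Levels, ratios and sums across genes may therefore mix abundance with transcript length, which does not affect CSE against WT within a gene. How many reads lie behind a value is not stated and was not worked out. Each sample had 12640 to 12778 genes at 1 TPM or more. Mitochondrially encoded genes held 27.0% to 30.2% of the TPM in WT, highest in WT replicate 3, and 25.5% to 25.8% in CSE. All 7 epithelial markers were expressed, summing to 5626 to 5907 TPM in WT and 5839 to 6140 TPM in CSE. Of 6 colon markers only CDX2 averaged at least 1 TPM, and GPA33, VIL1, CDX1, CDH17 and LGR5 were below it. Over all 6 samples, COL1A1 was the only one of 6 fibroblast markers and CD68 the only one of 6 immune markers to average at least 1 TPM. Of 4 endothelial markers 0 did. The immune marker CD14 averaged 1.003 TPM in WT and 0.253 TPM in CSE. The sums of the fibroblast and immune lists were lower in CSE (38.0 to 38.7 against 43.9 to 46.0 TPM and 12.9 to 13.8 against 19.2 to 19.6 TPM). The endothelial sum was 0.75 to 1.22 TPM in WT and 1.31 to 1.53 TPM in CSE, and the colon sum 8.94 to 10.45 and 10.62 to 11.42 TPM. Within the epithelial list KRT19 was 1.27 times its WT mean in CSE, while KRT18 and CLDN7 were 0.841 times theirs. CDX1 and the fibroblast marker DCN were listed at 0 in all samples and the leukocyte marker PTPRC at 0.03 TPM or less. The part of these differences and of the mitochondrial share in the results was not tested. In bulk RNA a change per cell and a change in the share of cells cannot be told apart.

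DHRS2 had the 4th highest value of the 10 genes in WT cells and the highest in CSE-treated cells. DHRS2 (ENSG00000100867, chromosome 14, 23630115 to 23645639, plus strand) was at 17, 17.70 and 15.24 TPM in the WT samples and at 48.70, 50.44 and 51.64 TPM in the CSE samples. Every CSE sample thus lay far above every WT sample, and the spread within either group was small beside the gap. The means were 16.6 ± 1.27 and 50.3 ± 1.48 TPM (SD, n = 3 each), a ratio of 3.02, with a log2 fold change of 1.54 on log2(TPM + 1) (SE 0.0545). Among the 12793 genes that passed the filter on low values (at least 1 TPM in at least 3 samples), this was rank 2 of all differences towards CSE and rank 8 by size in either direction.

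DHRS4 (ENSG00000157326, chromosome 14, 23953586 to 23969279, plus strand), the reductase whose gene starts 323 kb further along, did not share that size of difference. It was at 14.15, 13.73 and 11.93 TPM in WT and at 17.05, 15.25 and 16.40 TPM in CSE. The groups did not overlap, but WT replicate 1 and CSE replicate 2 lay close together. The means were 13.3 ± 1.18 and 16.2 ± 0.912 TPM (SD, n = 3 each), with a log2 fold change of 0.27 (SE 0.0651), 1.27 less than that of DHRS2. The ratio of DHRS2 to DHRS4 was 1.20, 1.29 and 1.28 in WT and 2.86, 3.31 and 3.15 in CSE. The value of DHRS2 was the higher in all 6 samples, which may depend on transcript length. Every CSE ratio lay above every WT ratio.

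DHRS4L2, the copy of DHRS4, was at 9.73, 8.92 and 8.19 TPM in WT and at 10.12, 11.13 and 10.53 TPM in CSE. Its log2 fold change of 0.22 (SE 0.0681, limma adjusted p = 0.00944) was near that of DHRS4, with which it shares transcript sequence. Without WT replicate 3 it was 0.17 and no longer passed (limma adjusted p = 0.0718).

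DHRS1, an enzyme of the endoplasmic reticulum, is the remaining gene of the same stretch of chromosome 14 (ENSG00000157379, 24290598 to 24299833, minus strand), 660 kb from DHRS2. It was at 19.22, 20.71 and 20.40 TPM in WT and at 28.76, 27.42 and 26.16 TPM in CSE, with no overlap between the groups. The log2 fold change was 0.43 (SE 0.0533), the largest of the 8 tested members other than DHRS2. DHRS7, a reductase of the endoplasmic reticulum encoded far along the same chromosome (ENSG00000100612, 60144120 to 60169856, minus strand), had the highest values in WT at 29.08, 28.27 and 25.93 TPM. In CSE it was at 34.82, 36.97 and 37.21 TPM, above every WT sample, a log2 fold change of 0.38 (SE 0.0519).

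**Figure D2:**
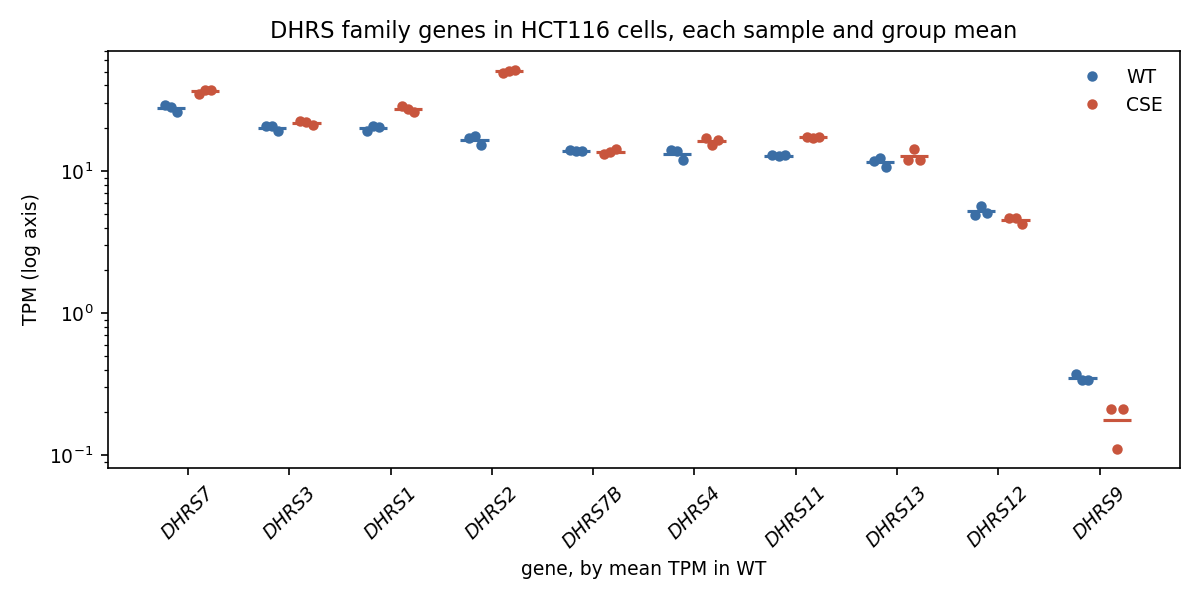
TPM of the 10 DHRS genes (y axis, log scale) in each WT (blue) and CSE (orange) sample, ordered by mean TPM in WT; points are samples and bars are group means. DHRS2 lies at 15.24 to 17.70 TPM in WT and at 48.70 to 51.64 TPM in CSE, where it stands above DHRS7, DHRS3 and DHRS1.

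Besides DHRS4, the family holds the retinoid enzymes DHRS3 and DHRS9. DHRS3 (ENSG00000162496, chromosome 1, 12567910 to 12617731, minus strand), which reduces retinal to retinol, was at 20.60, 20.84 and 19.14 TPM in WT and at 22.51, 22.12 and 21.22 TPM in CSE. The groups did not overlap, and the log2 fold change was 0.12 (SE 0.0535), which went down to 0.061 with mitochondrially encoded genes left out. DHRS9 (ENSG00000073737, chromosome 2, 169064789 to 169096167, plus strand), a retinol and steroid dehydrogenase, was barely present at 0.37, 0.34 and 0.34 TPM in WT and 0.21, 0.11 and 0.21 TPM in CSE, with every CSE sample below every WT sample. It was the 1 member that did not pass the filter, so no fold change is given for it. The number of reads behind its values was not worked out.

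The members on chromosome 17 differed among themselves. DHRS11 (ENSG00000278535, 36591798 to 36600806, plus strand), a cytosolic reductase of steroids and other carbonyls, was at 12.90, 12.66 and 13.02 TPM in WT and at 17.26, 16.98 and 17.48 TPM in CSE. Its replicates were tight, with SDs of 0.183 and 0.251 TPM, and the log2 fold change was 0.40 (SE 0.0547). DHRS7B (ENSG00000109016, 21123364 to 21193265, plus strand), the ether lipid enzyme, was at 13.99, 13.78 and 13.77 TPM in WT and at 13.27, 13.63 and 14.20 TPM in CSE, and the groups overlapped. Its log2 fold change was -0.015 (SE 0.0565); the sign turned to 0.0086 under quantile normalization and to 0.0064 without CSE replicate 1. DHRS13 (ENSG00000167536, 28897781 to 28903071, minus strand) was at 11.71, 12.37 and 10.72 TPM in WT and at 11.89, 14.24 and 11.95 TPM in CSE. CSE replicate 2 alone stood above the WT range, and the log2 fold change of 0.12 (SE 0.0705) was 0.038 without that sample.

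DHRS12 (ENSG00000102796, chromosome 13, 51767993 to 51804157, minus strand) was the only tested member that was lower in every CSE sample. It was at 4.94, 5.67 and 5.06 TPM in WT and at 4.66, 4.66 and 4.26 TPM in CSE, a log2 fold change of -0.17 (SE 0.0766). DHRSX, a further gene with a DHRS symbol, was at 3.00 to 3.38 TPM in WT and 3.34 to 3.46 TPM in CSE, with a log2 fold change of 0.060 (SE 0.0809, limma adjusted p = 0.56). DHRS7C was listed at 0 in all 6 samples.

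Of the 9 tested members, 5 passed limma's test over all genes (Benjamini-Hochberg adjusted p under 0.05) as higher in CSE and 0 as lower, where 24.5% of all genes tested passed as higher, 25.6% as lower and 50.1% in either direction. The 5 were DHRS1, DHRS2, DHRS4, DHRS7 and DHRS11. For 6 members every CSE sample lay above every WT sample and for 1 below, beside 27.5% and 29.9% of all genes tested and 57.4% for both directions together. The median log2 fold change was 0.27 over the 9 members, 0.20 without DHRS2 and -0.0039 over all genes. Since the family was chosen from this contrast, these counts describe it and are no test. In WT replicate 3, the sample with the most mitochondrially encoded RNA, 6 of the 9 members had their lowest WT value. The matching share over all genes was not counted, so nothing about the family is read from it. Without that sample the median log2 fold change over all genes was -0.019. With mitochondrially encoded genes left out and the rest rescaled, DHRS2 had a log2 fold change of 1.499, DHRS4 of 0.22, DHRS1 of 0.38, DHRS7 of 0.32 and DHRS11 of 0.35, at a median of -0.058 over all genes.

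**Figure D3:**
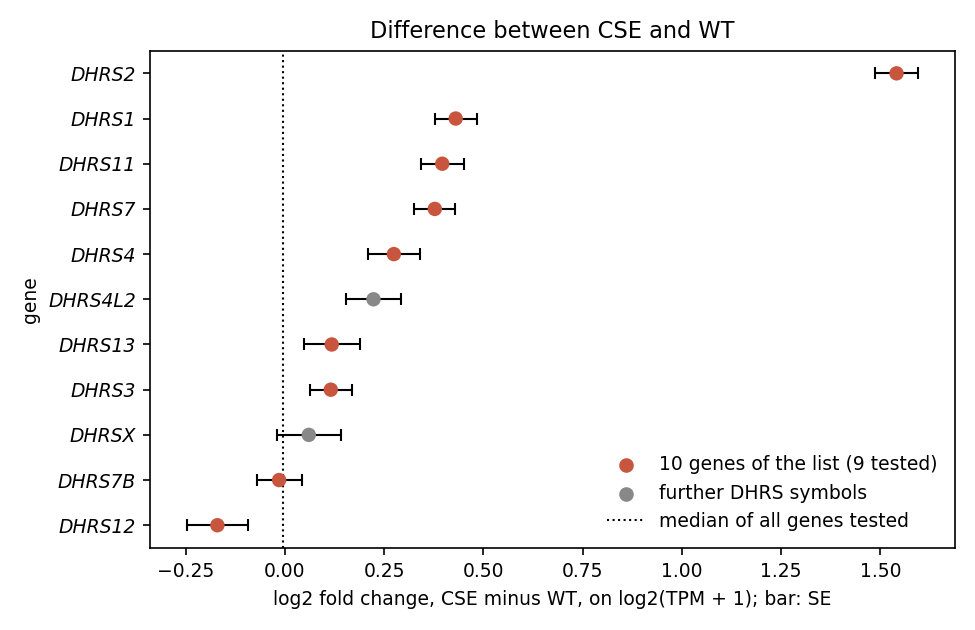
Log2 fold change of CSE minus WT on log2(TPM + 1) (x axis) for the 9 tested members (orange) and the further tested DHRS genes (grey), with bars for the SE and a dotted line at the median of all genes tested. DHRS2 lies at 1.54, the other members between -0.17 and 0.43.

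In the order of the listed values, which may depend on transcript length, DHRS2 passed 3 members, DHRS1 passed DHRS3, and DHRS11 and DHRS4 passed DHRS7B. In WT the order was DHRS7, DHRS3, DHRS1, DHRS2, DHRS7B, DHRS4, DHRS11, DHRS13, DHRS12 and DHRS9, and the ranges of neighbours overlapped for DHRS3 with DHRS1, DHRS7B with DHRS4 and DHRS4 with DHRS11. In CSE the order was DHRS2, DHRS7, DHRS1, DHRS3, DHRS11, DHRS4, DHRS7B, DHRS13, DHRS12 and DHRS9, with overlapping ranges for DHRS11 with DHRS4 and DHRS7B with DHRS13. Summed over the 10 genes the family was at 144, 146 and 136 TPM in WT and at 199, 202 and 201 TPM in CSE. DHRS2 supplied 11.2% to 12.1% of that sum in WT and 24.5% to 25.7% in CSE, and 57.3% of the difference of 58.7 TPM between the group means. The sums and shares may also depend on transcript length. Without DHRS2 the sum was still higher in every CSE sample, at 127, 128 and 120 TPM in WT against 150, 151 and 149 TPM in CSE, of which DHRS7 and DHRS1 made up 8.57 and 7.34 TPM of the difference.

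The genes around DHRS2 did not show a difference of its size, but only 0.0547% of all genes tested showed a larger one. DHRS2 was chosen for that difference, so the comparison says nothing particular about the region. Of 24 other genes of the table that start within 500 kb of DHRS2, members left out, 13 were tested, of which 2 rose, 3 fell and 8 did not pass (15.4% and 23.1%, against 24.5% and 25.6% of all genes), with a median log2 fold change of 0.046. With mitochondrially encoded genes left out 2 rose and 5 fell. The nearest tested genes before DHRS2 were AP1G2, an adaptor subunit of vesicle coats (log2 fold change -0.18, SE 0.0516, limma adjusted p = 0.00579), and THTPA, a thiamine triphosphatase (0.11, SE 0.0704, limma adjusted p = 0.202). Further out lay ZFHX2 (0.062, SE 0.0922, limma adjusted p = 0.597) and NGDN (-0.094, SE 0.0547, limma adjusted p = 0.159, or 0.0173 with mitochondrially encoded genes left out). On the other side DHRS4 was the next gene of the table, followed by DHRS4L2, CARMIL3 (-0.25, SE 0.0880, limma adjusted p = 0.0214) and PCK2, a mitochondrial enzyme of gluconeogenesis (0.046, SE 0.0423, limma adjusted p = 0.385). The genes that passed were DHRS4L2 and DCAF11 as higher and AP1G2, CARMIL3 and SLC22A17 as lower, with DCAF11 (0.22) and SLC22A17 (-0.31) named after their values were seen. The calls of AP1G2 and CARMIL3 were lost without WT replicate 1 (limma adjusted p = 0.0565 and 0.121), which left 3 genes. That of CARMIL3 was also lost without WT replicate 2 (0.0573) or CSE replicate 1 (0.0867), under quantile normalization (0.0552) and without the filter (0.0611).

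**Figure D4:**
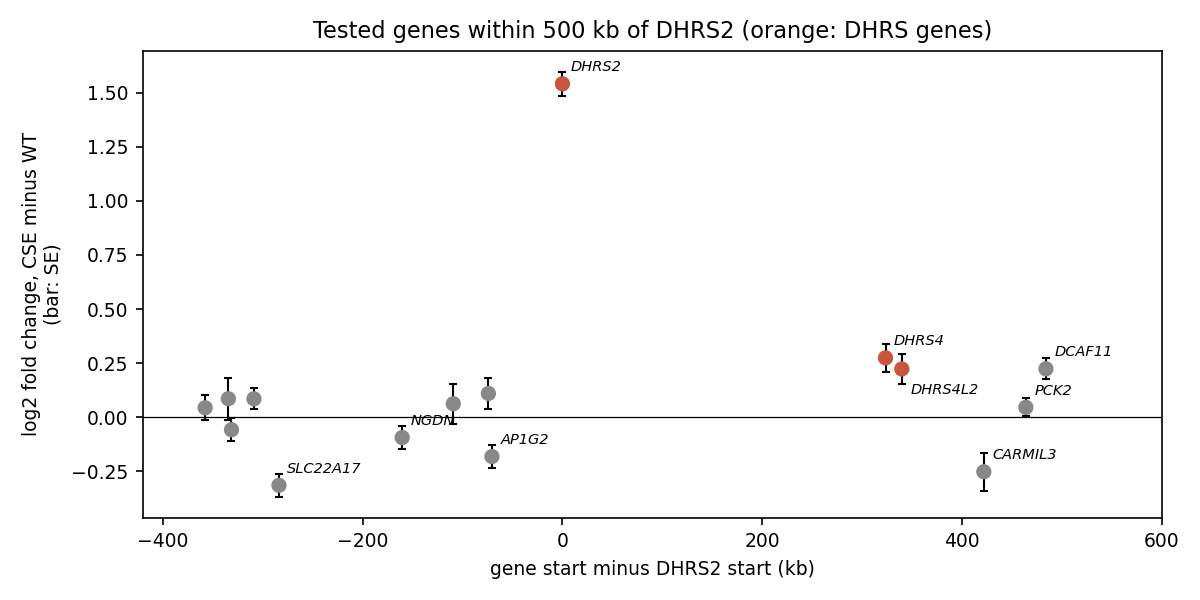
Log2 fold change of CSE minus WT (y axis, bars are the SE) of the tested genes that start within 500 kb of DHRS2, against the distance between gene starts in kb (x axis), with DHRS genes in orange. DHRS2 stands at 1.54, and the other genes lie between -0.31 and 0.27.

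Genes of the same superfamily outside the list changed in both directions. Of 63 further short-chain dehydrogenases/reductases, 62 had a line in the table and 52 were tested, of which 24 rose, 10 fell and 18 did not pass (46.2% and 19.2%, against 24.5% and 25.6% of all genes). Their median log2 fold change was 0.15, beside -0.0039 for all genes. With mitochondrially encoded genes left out, which moved the share of higher calls among all called genes from 48.9% to 34.3%, 17 rose and 11 fell. Without WT replicate 3, 15 rose and 9 fell.

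By log2 fold change on log2(TPM + 1), the 3 largest rises in that list were those of HSD17B11, DECR1 and HSD17B14. The pseudocount sets this order for low genes: HSD17B13, named after its values were seen, went from 1, 0.97 and 0.90 TPM to 1.51, 1.70 and 1.29 TPM, a ratio of 1.57 beside 1.53 for DECR1 and 1.38 for HSD17B14. HSD17B11, a hydroxysteroid dehydrogenase of lipid droplets, went from 36.20, 35.57 and 33.32 TPM to 54.07, 55.71 and 55.31 TPM, a log2 fold change of 0.64 with an SE of 0.0462 (limma adjusted p = 3.18e-10). DECR1, a mitochondrial reductase for the oxidation of unsaturated fatty acids, went from 40.13, 40.64 and 39.23 TPM to 61.30, 60.53 and 62.04 TPM (0.60, SE 0.0431, limma adjusted p = 2.6e-10). In both genes the samples of each group lay close together and far from the other group. HSD17B14, another hydroxysteroid dehydrogenase, rose from 5.08 ± 0.804 to 6.98 ± 0.271 TPM (SD, n = 3 each; log2 fold change 0.40, limma adjusted p = 0.000405).

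The largest falls were those of HSD11B1L, HSD17B6 and GMDS. HSD11B1L went from 11.66, 9.96 and 10 TPM to 6.22, 7.32 and 8.26 TPM, a log2 fold change of -0.49 with an SE of 0.0817 (limma adjusted p = 4.38e-05). HSD17B6, a hydroxysteroid dehydrogenase, fell from 9.23 ± 0.268 to 6.89 ± 0.940 TPM (-0.38, limma adjusted p = 0.000326). GMDS, which opens the synthesis of GDP-fucose, fell from 45.4 ± 2.77 to 35.8 ± 1.502 TPM (SD, n = 3 each; -0.33, limma adjusted p = 1.37e-05). CBR1, a carbonyl reductase of the same superfamily, was listed at 0 to 0.08 TPM and was not tested.

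**Figure D5:**
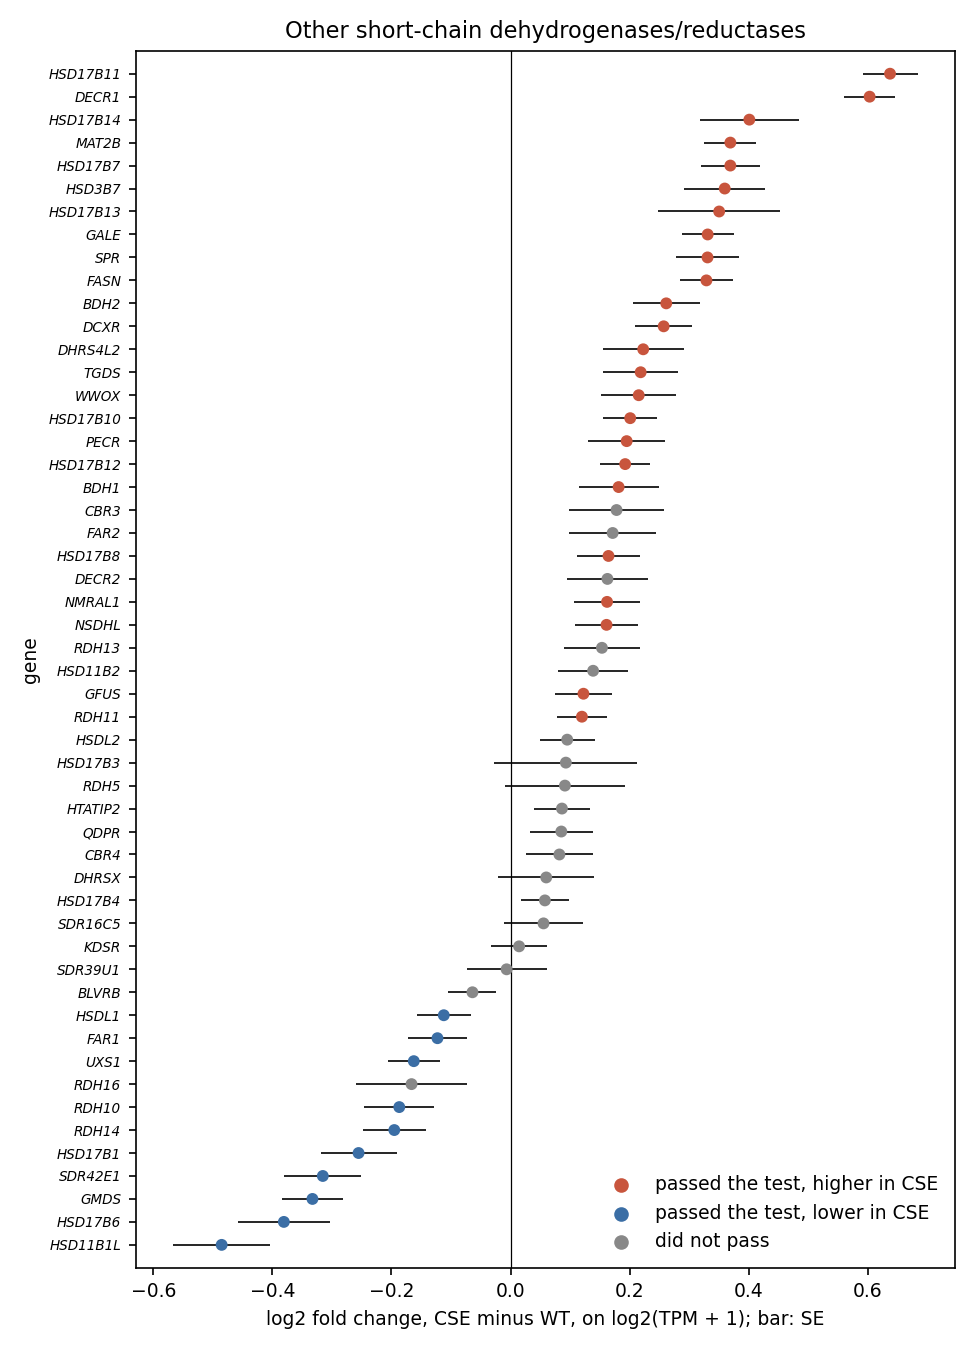
Log2 fold change of CSE minus WT on log2(TPM + 1) (x axis, bars are the SE) of the 52 tested short-chain dehydrogenases/reductases outside the list of 10, ordered by size. The 24 that passed as higher (orange) reach 0.64 in HSD17B11, and the 10 that passed as lower (blue) reach -0.49 in HSD11B1L.

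Genes that handle retinoids, the substrates of DHRS3, DHRS4 and DHRS9, were called about as often as all genes. Of 37 listed, 36 had a line and 20 were tested, of which 6 rose, 5 fell and 9 did not pass (30% and 25%, against 24.5% and 25.6% of all genes), with a median log2 fold change of 0.051. With mitochondrially encoded genes left out 5 rose and 8 fell. The list shares 7 retinol dehydrogenases with the superfamily list. ALDH1A3, which oxidises retinal to retinoic acid, fell from 435, 425 and 416 TPM to 321, 321 and 303 TPM, a log2 fold change of -0.43 with an SE of 0.0379 (limma adjusted p = 5.33e-09). CYP26B1, which clears retinoic acid, fell from 20.8 ± 0.365 to 15.8 ± 0.849 TPM (-0.38, limma adjusted p = 7.42e-06), and LRAT, which esterifies retinol, from 7.97 ± 0.273 to 6.76 ± 0.238 TPM (SD, n = 3 each; -0.21, limma adjusted p = 0.0121, or 0.0503 without WT replicate 1). RDH10, a retinol dehydrogenase that works with DHRS3 and was named after its values were seen, fell from 18.7 to 16.3 TPM (-0.19, limma adjusted p = 0.0112). The other retinol dehydrogenases of the list went different ways. RDH14 fell (-0.20, limma adjusted p = 0.00392) and RDH11 rose (0.12, limma adjusted p = 0.0202). RDH5, RDH13 and RDH16 did not pass, and RDH12 was not tested.

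On the rising side, ADH5, which clears formaldehyde bound to glutathione, went from 112 ± 2.18 to 136 ± 1.41 TPM (SD, n = 3 each; log2 fold change 0.28, limma adjusted p = 3.22e-06). FABP5, a binding protein for fatty acids and retinoic acid, rose from 188 ± 6.26 to 227 ± 10.8 TPM (0.27, limma adjusted p = 1.31e-05). BCO2, which cleaves carotenoids, rose from 3.65 ± 0.438 to 4.62 ± 0.297 TPM (0.28, limma adjusted p = 0.00917), a call lost without WT replicate 2 (limma adjusted p = 0.0538).

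Aldo-keto reductases reduce overlapping carbonyl substrates with a different protein fold. The list of 16 genes also holds the potassium channel subunits KCNAB1, KCNAB2 and KCNAB3, all tested and none called. Of the 16 genes 10 were tested, of which 2 rose, 0 fell and 8 did not pass (20% and 0%, against 24.5% and 25.6% of all genes), with a median log2 fold change of 0.0028. The share that rose was thus near that of all genes, while the share called in either direction was below their 50.1%. Both shares rest on 10 genes. With mitochondrially encoded genes left out 2 rose and 2 fell. AKR7A2, an aflatoxin aldehyde reductase, rose from 97.1 ± 4.94 to 119 ± 3.70 TPM (SD, n = 3 each; log2 fold change 0.29, limma adjusted p = 1.05e-05). AKR1E2 was at 3.42 ± 0.622 TPM in WT and 4.40 ± 0.314 TPM in CSE (0.30, limma adjusted p = 0.0125). That call ended without WT replicate 2 (limma adjusted p = 0.135) and without the filter (0.0723).

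The genes whose profile over the 6 samples was nearest to that of DHRS2 were CYP24A1, WNT16, RNF43, SCG2 and HMMR. Likeness was the root mean square distance of log2(TPM + 1) after each gene's WT mean was subtracted, over genes with a mean of at least 5 TPM. It was 0.137 for CYP24A1, 0.142 for WNT16, 0.183 for RNF43, 0.195 for SCG2 and 0.272 for HMMR. With 2 groups of 3 samples this distance mostly follows the size of the difference, for which DHRS2 was chosen. That difference was 1.70 for CYP24A1, 1.46 for WNT16, 1.31 for RNF43, 1.28 for SCG2 and 1.17 for HMMR. WNT16 averaged 4.34 TPM in WT and 13.7 TPM in CSE, and so met the limit of 5 TPM only through CSE. CYP24A1 was at 70.3 to 79.8 TPM in CSE with its lowest value in CSE replicate 3, where DHRS2 had its highest.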

How the data were processed

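Poly(A) RNA libraries of 3 WT and 3 CSE samples were sequenced, per the labels' protocols. The authors deposited TPM for 20263 genes, with 0 sample columns left unmapped; tools in the submitters' processing notes are HISAT2 2.0, Trimmomatic 0.36, bedtools 2.26.0 and FastQC 0.11.2, with build GRCh38 and no roles. Which program counted, with which annotation and strand setting, is not given in the sources used here. Depth is not stated and was not worked out from the steps of the low values, so no counting interval was computed. Symbols were matched from Ensembl IDs (20148 genes), positions came from GENCODE 29, and start windows from RefSeq.

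Genes with at least 1 TPM in at least 3 samples were kept (12793). CSE was compared with WT on log2(TPM + 1) with limma 3.58.1 in R 4.3.3 (mean-variance trend, no covariate) and Benjamini-Hochberg adjustment over all genes at 0.05. The procedure was tried on simulated data with far fewer changed genes than were called here, which does not vouch for these calls. Fold changes understate the change of low genes. Whether the samples are separate cultures is not labelled, and p-values therefore reflect no more than the spread among the samples at hand, possibly a technical one. The members and the lists were chosen with earlier results of these data known.

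Named were the 10 members and other DHRS symbols; the 3 largest called rises and falls of the superfamily and retinoid lists, and 2 each of the aldo-keto reductases; the 4 tested genes nearest to DHRS2 on each side; and the 5 nearest to DHRS2 by profile. Tried besides were no filter, a mean of at least 5 TPM, a pseudocount of 0.1, median-of-ratios scaling, quantile normalization, removal of mitochondrially encoded genes, other variance priors, a replicate block and leaving out each sample. Coding sequences were aligned with Biopython 1.88.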

Additional observations from a re-analysis of the deposited data

How the results depend on the processing

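Over the 15 alternatives the log2 fold change of DHRS2 ranged from 1.48 to 1.59, and the difference between DHRS2 and DHRS4 from 1.22 to 1.32; leaving out each sample gave 1.48 to 1.58 and 1.22 to 1.32. DHRS3 passed as higher after quantile normalization, after median-of-ratios scaling and without CSE replicate 3, where its log2 fold change was 0.14. DHRS12 passed as lower with mitochondrially encoded genes left out and without the variance trend, and DHRS9 as lower without the filter. The number of genes called was 5463 to 6924 (6407 as reported). The number of aldo-keto reductases called, 2 as reported, was 1 at a mean of at least 5 TPM, where 4 were tested, and 4 with mitochondrially encoded genes left out, and 1 to 2 when samples were left out. The number of genes near DHRS2 called, 5 as reported, was 3 to 5 when samples were left out. Same-numbered samples did not stand out as pairs: their deviations correlated at -0.071, 0.015 and -0.088 across genes, and WT replicate 1 correlated best with CSE replicate 3. With 3 samples per group, correlations this weak cannot exclude a pairing. With the replicate block 6537 genes were called, 38 instead of 34 of the further superfamily genes, and the same number of members, 5. Leaving out a sample leaves 2 in a group, whose spread is then pooled over both groups. The values of DHRS9 and other genes near 0, whose read numbers were not worked out, are the most limited.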
